A study of Rattus norvegicus with 18 samples.

Results

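The complement genes C1qa, C1qb, C1qc, C1r, C1s, C2, C3, Cfb and Serping1 were followed in primary rat astrocytes and microglia that met amyloid-β (Aβ) fibrils. These 9 symbols were chosen by name as components and a regulator of complement, and all 9 were found among the 17307 gene symbols of the astrocyte tables and the 17327 of the microglia tables. Astrocytes and microglia came from the brains of newborn wild-type Sprague-Dawley rats. They were first grown together as mixed glia, then separated and seeded as separate cultures before treatment. Cells of each type were left untreated (control), or were treated with mature fibrils of Aβ42 or of Aβ40, and RNA was collected after 24 h. The control groups received neither peptide, and each of the 6 groups held 3 libraries, 18 in all. Nothing in the labels says that the 3 libraries of a group came from separate cultures or litters, so the p-values measure the spread between these libraries, which may be technical.

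Complement is a cascade of plasma proteins that tags surfaces for uptake or lysis. In the classical pathway, the recognition molecule C1q, built of chains encoded by C1qa, C1qb and C1qc, binds its target and activates the serine proteases C1r and C1s. C1s cleaves C4 and C2 into a convertase that splits C3, the central component, while factor B (Cfb) provides the catalytic chain of the alternative pathway convertase, which amplifies the deposition of C3. The C1 inhibitor, encoded by Serping1, inactivates C1r and C1s. In brain, C1q is known as a product chiefly of microglia and C3 as a product of reactive astrocytes and microglia, and both take part in the tagging of synapses for removal.

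The sequences upstream of 4 members are shown, which are those with an entry. With fibrils, C1qa and C1qb fell in both cell types, C1r rose in both, and C3 rose in astrocytes and had no call in microglia. Each is the 250 bases before the annotated start, 5′ to 3′ on the strand of the gene, from RefSeq (build GRCr8), which held entries for 4 of the 9 members. The entry of C1qa lies at chr5:154419934-154420183 on the minus strand, that of C1qb at chr5:154407828-154408077 on the minus strand, that of C1r at chr4:159098763-159099012 on the plus strand and that of C3 at chr9:2201340-2201589 on the minus strand. C1qc, C1s, C2, Cfb and Serping1 are named only. Capitals mark matches to 4 motifs searched on both strands, GAS (TTCNNNGAA), ISRE (GAAA and GAAA with 2 bases between them), NF-kB (GGG and TTTCC with 2 bases between them) and C/EBP (TTGCNNAA).
C1qa: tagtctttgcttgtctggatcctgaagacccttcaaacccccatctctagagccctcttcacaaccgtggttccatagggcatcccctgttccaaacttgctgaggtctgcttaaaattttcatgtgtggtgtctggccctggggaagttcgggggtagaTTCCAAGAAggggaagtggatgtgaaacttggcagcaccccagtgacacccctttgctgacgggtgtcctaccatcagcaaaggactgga
C1qb: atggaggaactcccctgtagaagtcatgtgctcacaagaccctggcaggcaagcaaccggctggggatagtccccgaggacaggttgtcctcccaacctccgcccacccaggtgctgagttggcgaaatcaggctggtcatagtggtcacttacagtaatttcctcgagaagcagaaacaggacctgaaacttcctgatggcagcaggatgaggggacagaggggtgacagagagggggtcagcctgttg
C1r: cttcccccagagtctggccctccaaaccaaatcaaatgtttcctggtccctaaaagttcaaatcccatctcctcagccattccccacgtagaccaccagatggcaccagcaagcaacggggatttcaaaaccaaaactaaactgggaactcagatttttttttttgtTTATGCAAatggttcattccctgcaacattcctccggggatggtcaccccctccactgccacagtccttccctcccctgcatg
C3: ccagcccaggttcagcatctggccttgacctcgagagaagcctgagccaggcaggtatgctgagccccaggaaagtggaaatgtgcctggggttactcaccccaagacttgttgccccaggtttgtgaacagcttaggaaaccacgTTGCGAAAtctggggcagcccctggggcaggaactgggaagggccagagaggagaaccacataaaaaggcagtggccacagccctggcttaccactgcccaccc

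The upstream bases of C1qa held 1 GAS match, TTCCAAGAA, whose first base lies 90 bases before the start. This palindromic motif was read on both strands, and 7.67% of the 33469 promoters of the same 250 bases held a match. C3 held 1 C/EBP match on its own strand, TTGCGAAA, 104 bases before the start, and C1r held 1 on the opposite strand, read there as TTGCATAA, 83 bases before the start. A C/EBP match was present in 9.22% of promoters. No match to the ISRE or NF-kB letters, held by 3.41% and 1.3% of promoters, lay in the 4 windows, and C1qb held no match to any of the motifs. The matches overlap no other motif, and they are a description of letters and not of binding.

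Libraries held 3674043 to 19013919 counts on genes in astrocytes and 2271834 to 22274367 in microglia, and 26.0% to 34.2% and 21.7% to 24.5% of counted reads lay off genes or were ambiguous. Values are given as scaled counts (CPM), for which each library was scaled by edgeR's TMM factors within its cell type, and levels are not compared between genes, since transcript lengths were not used. Astrocyte markers summed to 8141 to 9840 CPM in untreated astrocytes and 187 to 211 CPM in untreated microglia, and microglial markers to 8231 to 9273 CPM in untreated microglia and 402 to 423 CPM in untreated astrocytes. Markers of the oligodendrocyte lineage summed to 1223 to 1564 CPM in untreated astrocytes and 1849 to 2013 CPM in untreated microglia. Replicate 1 of the Aβ42 fibril-treated microglia, with 2613723 counts against 22274367 and 17687416 in the other 2 libraries of its group, stood apart. Its expression lay nearer to the Aβ40 group (root mean square distance 0.433 on the log2 scale) than to its own (0.632), whereas the other 2 libraries lay at 0.350 and 0.353 from their own group and at 0.594 and 0.609 from the Aβ40 group. Results in microglia are therefore also given without it. In bulk RNA, fewer cells of a type and less RNA per cell cannot be told apart.

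The share of all gene counts that fell on the 9 members rose in astrocytes from 0.101% ± 0.0051 (SD, n = 3) in controls to 1.13% ± 0.0100 with Aβ42 fibrils and 1.16% ± 0.0573 with Aβ40 fibrils. In microglia it was 0.477% ± 0.0829 in controls, 0.485% ± 0.0391 with Aβ42 fibrils and 0.522% ± 0.0036 with Aβ40 fibrils. The range with Aβ42 fibrils (0.440% to 0.510%) and that with Aβ40 fibrils (0.518% to 0.525%) both lay within that of the controls (0.384% to 0.541%). The near-constant microglial total covered opposite changes of single members, as the plot of scaled CPM by library shows.

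**Figure D1:**
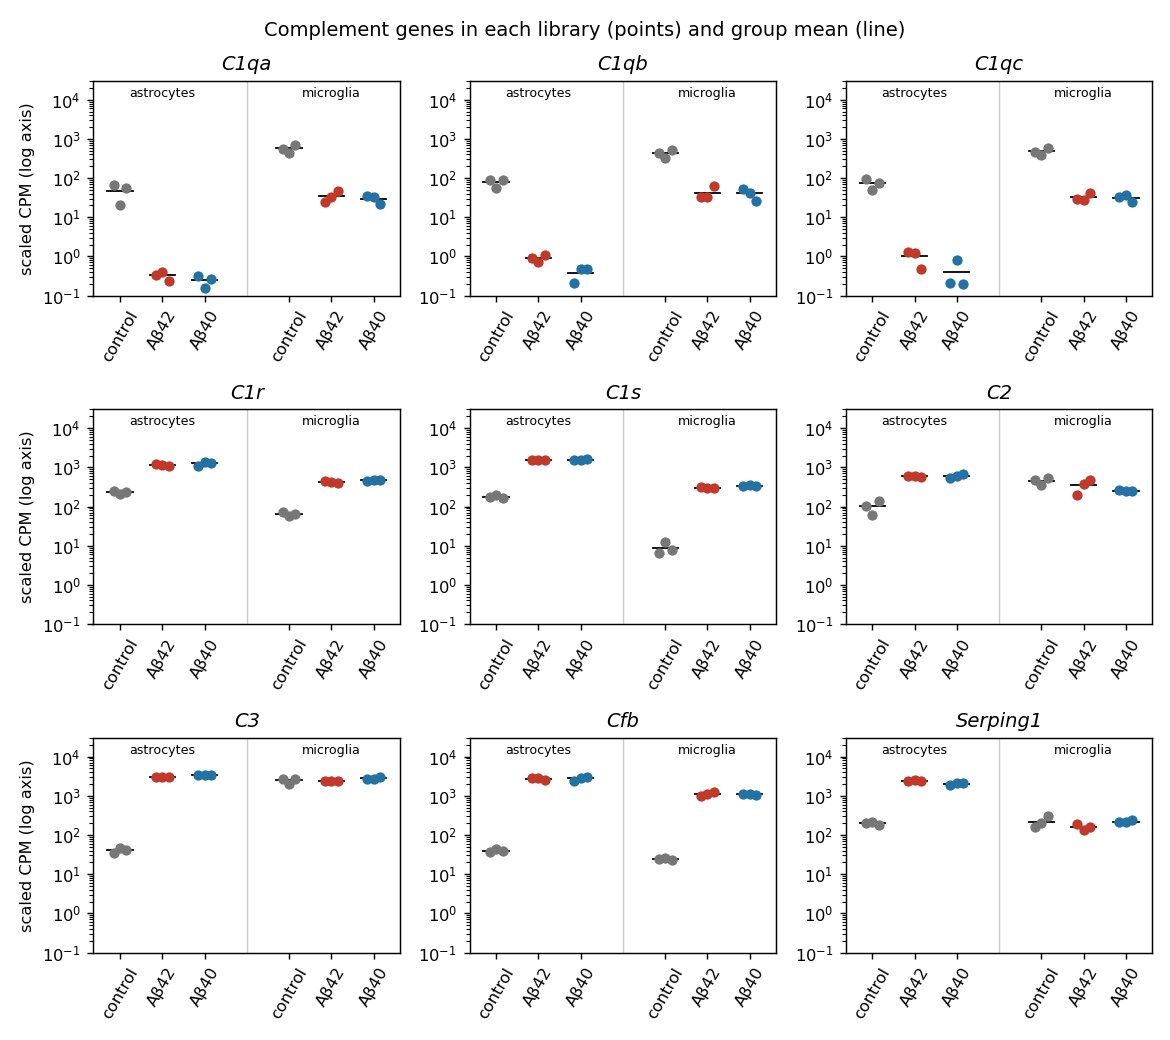
Scaled CPM of the 9 complement genes in each library, on a log axis, with 1 panel for each gene; points are the 3 libraries of a group and lines are group means. In astrocytes the C1q genes lie below 1.5 CPM with either fibril and the other 6 genes lie above every control library, whereas in microglia C3 stays between 1955 and 3035 CPM in all 9 libraries.

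Fibril-treated and control libraries were compared by the quasi-likelihood test of edgeR, with p-values adjusted by the Benjamini-Hochberg method, in a model fitted to all 9 libraries of a cell type, and genes with an adjusted p-value under 0.05 were called. In astrocytes with Aβ42 fibrils, 6 of 9 members were higher and 3 lower, where 37.0% of the 11690 genes tested were called (16.5% higher, 20.4% lower). With Aβ40 fibrils the counts were again 6 higher and 3 lower, where 33.3% were called (14.9% higher, 18.4% lower). All 9 changed by 5-fold or more in both comparisons, a size that 3.03% of genes reached upward and 3.24% downward with Aβ42 fibrils, and 2.82% and 2.60% with Aβ40 fibrils. Among them, the 3 C1q genes passed the filter on low counts through the control libraries, so that any call had to be lower. The members were chosen with earlier results of these data known, so the shares are a description and not a test. In microglia with Aβ42 fibrils, 3 members were higher, 3 lower and 3 had no call, where 53.7% of the 10837 genes tested were called (27.1% higher, 26.6% lower). With Aβ40 fibrils, 3 were higher, 4 lower and 2 had no call, where 41.0% were called (19.6% higher, 21.4% lower). The treated and control libraries did not overlap for 9 of 9 members with each fibril in astrocytes (45.7% and 43.2% of genes) and for 6 and 7 of 9 in microglia (54.0% and 59.5%). The fibril comparisons of a cell type share their control libraries.

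**Figure D2:**
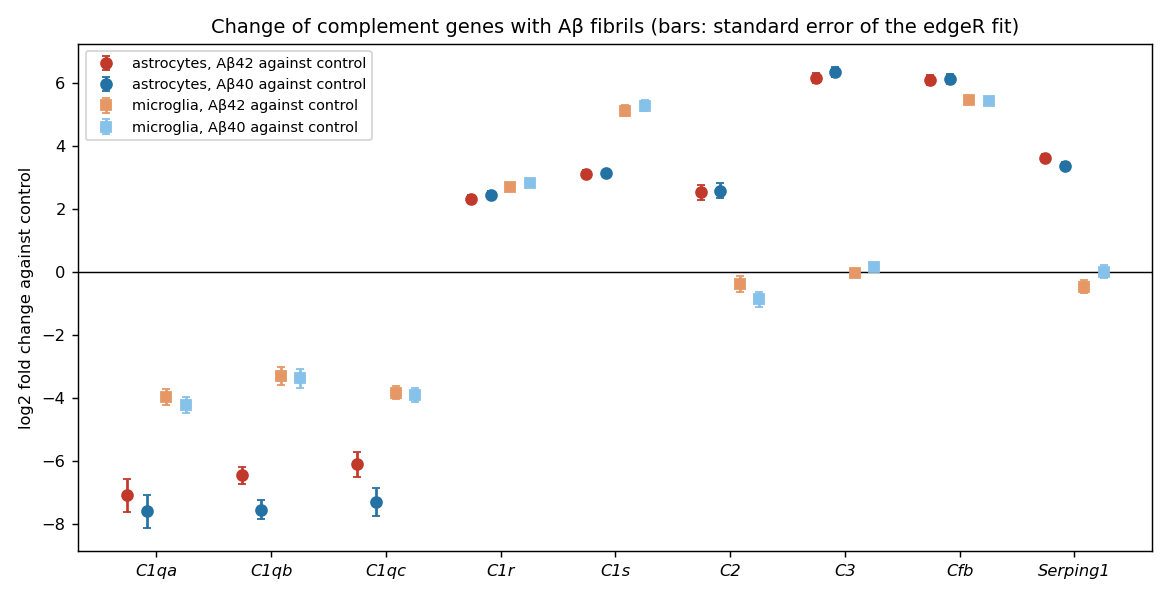
Log2 fold change of the 9 complement genes against control (vertical axis), for Aβ42 and Aβ40 fibrils in astrocytes (circles) and microglia (squares); bars are the standard error of the edgeR fit. The C1q genes lie below 0 in both cell types, C1r, C1s and Cfb lie above 0 in both, and C2, C3 and Serping1 lie above 0 in astrocytes, whereas in microglia they lie between -0.87 and 0.18.

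The recognition subunits of C1q fell in every comparison with control. In microglia, C1qa, which encodes the A chain, was at 560, 445 and 705 CPM in control replicates 1 to 3, at 25.2, 32.8 and 47.6 CPM with Aβ42 fibrils and at 35.0, 32.0 and 22.1 CPM with Aβ40 fibrils. Every treated library was thus far below every control library, and the treated groups overlapped. C1qa was 15.6-fold lower with Aβ42 fibrils (log2 -3.97, SE 0.24, adjusted p = 6.17e-08) and 18.8-fold lower with Aβ40 fibrils (log2 -4.23, SE 0.26, adjusted p = 6.76e-08). The B and C chain genes took the same course, C1qb by log2 -3.30 and -3.37 and C1qc by log2 -3.83 and -3.91 with Aβ42 and Aβ40 fibrils (adjusted p between 2.71e-08 and 2.03e-06). Without replicate 1 of the Aβ42 group the log2 changes with Aβ42 fibrils were -3.84 for C1qa, -3.19 for C1qb and -3.79 for C1qc, and all 3 calls remained.

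In astrocyte cultures the same genes were present at lower control levels. C1qa was at 66.8, 20.6 and 54.4 CPM in control replicates 1 to 3, at 0.343, 0.404 and 0.240 CPM with Aβ42 fibrils and at 0.312, 0.160 and 0.266 CPM with Aβ40 fibrils. Control replicate 2 held the least C1qa and lay farther from its group than the other 2 controls over all genes, yet still far above every treated library. The fitted log2 changes of C1qa were -7.10 (SE 0.52, adjusted p = 1.53e-06) and -7.61 (SE 0.52, adjusted p = 1.12e-06) with Aβ42 and Aβ40 fibrils by edgeR's quasi-likelihood test. C1qb (log2 -6.46 and -7.55) and C1qc (log2 -6.11 and -7.31) also fell, each with groups that did not overlap. The value of C1qc with Aβ40 fibrils moved to -8.41 without Aβ40 replicate 2, which held 15 of the 20 reads of its group, and its difference between the cell types moved from 3.37 to 4.48. These treated levels rest on few reads: the 3 libraries of a group together held 11 and 10 reads of C1qa with Aβ42 and Aβ40 fibrils, 29 and 18 of C1qb and 35 and 20 of C1qc. The exact 95% Poisson interval of the C1qa level, which covers counting error only, was 0.167 to 0.600 CPM with Aβ42 fibrils and 0.111 to 0.424 CPM with Aβ40 fibrils, so the size of the fall is known less well than its direction. The C1q genes passed the filter on low counts in astrocytes through the control libraries, so that they had to be lower with fibrils for any call.

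Markers of microglia fell in the same astrocyte libraries. Their sum over 11 genes went from 402 to 423 CPM in controls to 165 to 181 CPM with Aβ42 fibrils and 144 to 157 CPM with Aβ40 fibrils, with 9 and 10 of 11 lower and 0 higher, a median log2 change of -2.97 and -2.95, and none of the 11 at 0 in all libraries of a group. In both comparisons 1 of the 11 fell more than all C1q genes, which is Cx3cr1 (log2 -9.26 and -8.80, named after its value was seen), and 10 fell less or did not fall. In microglia the sum went from 8231 to 9273 CPM to 2604 to 3810 CPM with Aβ42 fibrils and 3295 to 3914 CPM with Aβ40 fibrils, with 8 and 10 of 11 lower and 1 higher. There, with each fibril, 2 of the 11 fell more than all C1q genes and 8 fell less or rose. The 2 are Cx3cr1 (log2 -7.08 and -6.97) and P2ry12 (log2 -6.09 and -5.67), named after their values were seen. The part of these markers in the fall of C1q was not tested.

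**Figure D3:**
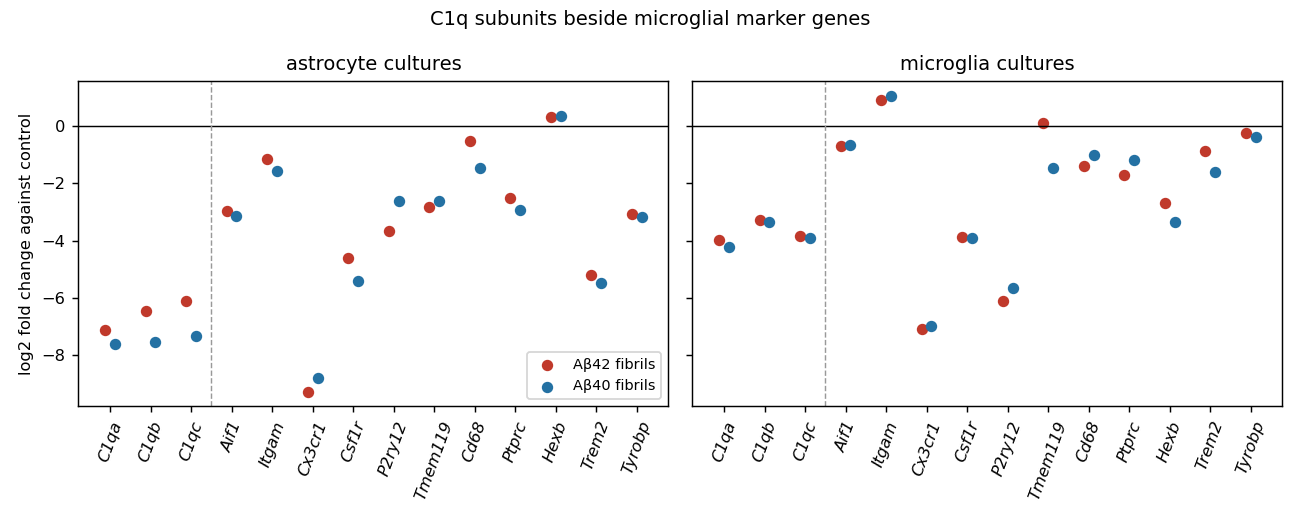
Log2 fold change against control (vertical axis) of the 3 C1q genes, left of the dashed line, and of 11 microglial marker genes, in astrocyte and in microglia cultures, for Aβ42 (red) and Aβ40 fibrils (blue). The C1q genes lie between -7.61 and -6.11 in astrocyte cultures and between -4.23 and -3.30 in microglia cultures, and in each culture most markers lie closer to 0.

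Within the C1q genes, the proportions of the chains shifted in microglia. The log2 ratio of C1qa to C1qb counts within a library was 0.34, 0.42 and 0.45 in control replicates 1 to 3, -0.38, -0.01 and -0.39 with Aβ42 fibrils and -0.62, -0.40 and -0.25 with Aβ40 fibrils. All treated libraries lay below all controls, by a mean of -0.66 and -0.82 (exact permutation test, two-sided p = 0.1, the smallest that 3 against 3 libraries allow). The ratio of C1qc to C1qb differed likewise, by -0.47 and -0.49 (exact permutation p = 0.1 for each), so that C1qb fell least of the 3. In astrocyte cultures the treated libraries overlapped the controls for both ratios, with a pooled SD of 0.56 and 0.78 for the log2 ratio of C1qa to C1qb.

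The proteases of the C1 complex rose in both cell types. C1s, the protease that cleaves C4 and C2, was at 171, 193 and 170 CPM in control astrocytes, at 1543, 1571 and 1564 CPM with Aβ42 fibrils and at 1531, 1558 and 1637 CPM with Aβ40 fibrils. In microglia it was at 6.36, 12.2 and 7.93 CPM in controls, at 306, 306 and 294 CPM with Aβ42 fibrils and at 326, 350 and 339 CPM with Aβ40 fibrils. The groups were far apart in both cell types, and the microglia started from a much lower level. The rise by edgeR's quasi-likelihood test was 8.77-fold and 8.86-fold in astrocytes (log2 3.13 and 3.15, SE 0.11 for both) and 35.1-fold and 39.4-fold in microglia (log2 5.13, SE 0.18 and 5.30, SE 0.19), with adjusted p between 1.04e-09 and 1.09e-08.

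C1r, which activates C1s, was at 252, 208 and 228 CPM in control astrocytes, at 1238, 1159 and 1089 CPM with Aβ42 fibrils and at 1113, 1372 and 1284 CPM with Aβ40 fibrils. In microglia it was at 72.0, 58.1 and 65.6 CPM in controls, at 452, 428 and 410 CPM with Aβ42 fibrils and at 445, 488 and 470 CPM with Aβ40 fibrils. No treated library overlapped a control in either cell type. The rise was 5.06-fold and 5.47-fold in astrocytes (log2 2.34 and 2.45, SE 0.13 for both) and 6.57-fold and 7.15-fold in microglia (log2 2.72 and 2.84, SE 0.11 for both), with adjusted p between 2.13e-09 and 1.83e-07 by edgeR's quasi-likelihood test. Without replicate 1 of the Aβ42 group the microglial log2 changes with Aβ42 fibrils were 2.67 for C1r and 5.14 for C1s. Since C1s rose more than C1r, the log2 ratio of C1s to C1r within a library was higher with either fibril in every library, by 0.79 and 0.70 in astrocytes and by 2.42 and 2.46 in microglia (exact permutation p = 0.1 for each). In the microglia libraries, fibroblast markers summed to 55.4 to 67.8 CPM in controls, 134 to 162 CPM with Aβ42 fibrils and 119 to 125 CPM with Aβ40 fibrils, and of the 4 tested 3 were higher and 0 lower with Aβ42 fibrils and 2 higher and 1 lower with Aβ40 fibrils, while astrocyte markers summed to 187 to 211, 140 to 170 and 187 to 193 CPM. The part of these markers in the rise of C1r and C1s was not tested.

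The convertase genes C2 and Cfb, which encode related proteases, both rose in astrocytes, C2 by less than Cfb, while in microglia Cfb rose and C2 had no call or, with Aβ40 fibrils, a fall. Cfb was at 37.0, 43.3 and 39.6 CPM in control astrocytes, at 2822, 2840 and 2611 CPM with Aβ42 fibrils and at 2449, 2903 and 3104 CPM with Aβ40 fibrils. In microglia it was at 24.7, 26.3 and 23.5 CPM in controls, at 1001, 1114 and 1224 CPM with Aβ42 fibrils and at 1104, 1096 and 1056 CPM with Aβ40 fibrils. All treated libraries were at least an order of magnitude above all controls. The rise was 68.9-fold and 70.5-fold in astrocytes (log2 6.11, SE 0.15 and 6.14, SE 0.15) and 44.9-fold and 43.8-fold in microglia (log2 5.49, SE 0.12 and 5.45, SE 0.12), with adjusted p between 8.75e-11 and 2.26e-09 by edgeR's quasi-likelihood test.

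C2, the classical pathway counterpart, was at 105, 61.0 and 135 CPM in control astrocytes, at 603, 611 and 556 CPM with Aβ42 fibrils and at 546, 619 and 670 CPM with Aβ40 fibrils. It rose 5.83-fold and 6.05-fold (log2 2.54 and 2.60, SE 0.24 for both, adjusted p = 1.04e-05 and 9.93e-06, edgeR's quasi-likelihood test). In microglia C2 was at 472, 361 and 550 CPM in controls, at 200, 383 and 475 CPM with Aβ42 fibrils and at 263, 250 and 245 CPM with Aβ40 fibrils. The Aβ42 libraries overlapped the controls and the Aβ40 libraries lay below them. C2 was 1.82-fold lower with Aβ40 fibrils (log2 -0.87, SE 0.25, adjusted p = 0.0148), a call that was lost without Aβ40 replicate 3 (log2 -0.85, adjusted p = 0.0515) or control replicate 3 (log2 -0.70, adjusted p = 0.0755). With Aβ42 fibrils the log2 change was -0.38 (95% interval -0.91 to 0.16, adjusted p = 0.212). It was -0.11 (adjusted p = 0.470) without Aβ42 replicate 1 and -0.64 (adjusted p = 0.0464) without Aβ42 replicate 3. The log2 ratio of C2 to Cfb changed by -3.48 and -3.46 in astrocytes and by -5.93 and -6.29 in microglia with Aβ42 and Aβ40 fibrils (exact permutation p = 0.1 for each).

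C3, the protein on which the pathways converge, rose in astrocytes. It was at 34, 47.6 and 41.8 CPM in control astrocytes, at 3000, 2982 and 2996 CPM with Aβ42 fibrils and at 3326, 3384 and 3502 CPM with Aβ40 fibrils. These libraries did not overlap, and the rise was 72.6-fold with Aβ42 fibrils (log2 6.18, SE 0.15, adjusted p = 1.66e-09) and 82.6-fold with Aβ40 fibrils (log2 6.37, SE 0.16, adjusted p = 2.26e-09). In microglia C3 was at 2734, 1955 and 2718 CPM in controls, at 2366, 2459 and 2394 CPM with Aβ42 fibrils and at 2655, 2683 and 3035 CPM with Aβ40 fibrils. Each treated group overlapped the controls. The log2 change against control was -0.04 with Aβ42 fibrils (95% interval -0.32 to 0.25, adjusted p = 0.824) and 0.18 with Aβ40 fibrils (95% interval -0.11 to 0.46, adjusted p = 0.310). Between the fibrils C3 had no call in microglia by edgeR's quasi-likelihood test (log2 -0.21, adjusted p = 0.237). Treated astrocytes and microglia thus held C3 at 2982 to 3502 and 2366 to 3035 CPM, each on the scale of its own cell type.

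Serping1, the inhibitor of C1r and C1s, was at 199, 216 and 175 CPM in control astrocytes, at 2401, 2489 and 2411 CPM with Aβ42 fibrils and at 1943, 2143 and 2067 CPM with Aβ40 fibrils. Both treated groups lay above all controls, and the rise was 12.4-fold and 10.4-fold (log2 3.63 and 3.38, SE 0.12 for both, adjusted p = 6.60e-09 and 1.09e-08, edgeR's quasi-likelihood test). In microglia Serping1 was at 156, 197 and 301 CPM in controls, at 189, 133 and 159 CPM with Aβ42 fibrils and at 212, 216 and 235 CPM with Aβ40 fibrils. The treated libraries overlapped the controls, whose spread was wide. The log2 change was -0.46 with Aβ42 fibrils (95% interval -0.90 to -0.01, adjusted p = 0.0800) and 0.02 with Aβ40 fibrils (95% interval -0.43 to 0.47, adjusted p = 0.954). Leaving out Aβ42 replicate 1 gave -0.59 (adjusted p = 0.00947) for Aβ42 fibrils, and leaving out control replicate 1 gave -0.63 (adjusted p = 0.0212).

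Ratios of counts within a library, which need no scaling between libraries, show how members moved against each other, although the level of a ratio depends on transcript lengths. The log2 ratio of the summed C1q genes to the sum of C1r and C1s was -0.74, -1.67 and -0.86 in control astrocytes, and lay between -10.48 and -10.08 with Aβ42 fibrils and between -11.73 and -10.96 with Aβ40 fibrils. In microglia it was 4.23, 4.05 and 4.63 in controls, -3.11, -2.97 and -2.20 with Aβ42 fibrils and -2.66, -2.91 and -3.46 with Aβ40 fibrils. The ratio thus fell in every treated library of both cell types, and in microglia it changed sign.

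The balance of the proteases to their inhibitor went in opposite directions in the 2 cell types. The log2 ratio of C1r and C1s to Serping1 changed by -0.89 and -0.59 in astrocytes with Aβ42 and Aβ40 fibrils and rose by 3.71 and 3.37 in microglia. Its values were 1.09, 0.89 and 1.19 in control astrocytes and 0.13 to 0.50 in the 6 treated ones, against -1.0, -1.48 and -2.03 in control microglia and 1.78 to 2.47 in the 6 treated ones. The ratio of C3 to Cfb also separated the cell types. In astrocytes it was between -0.12 and 0.14 in controls and between 0.07 and 0.44 with fibrils, a mean difference of 0.09 and 0.25, whereas in microglia it fell from 6.21 to 6.85 in controls to 0.97 to 1.52 with fibrils, a mean difference of -5.50 and -5.26. Where treated and control libraries did not overlap, the exact permutation test gave p = 0.1, the smallest it can give, and for C3 to Cfb in astrocytes with Aβ42 fibrils, where they did overlap, the exact permutation p was 0.5.

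**Figure D4:**
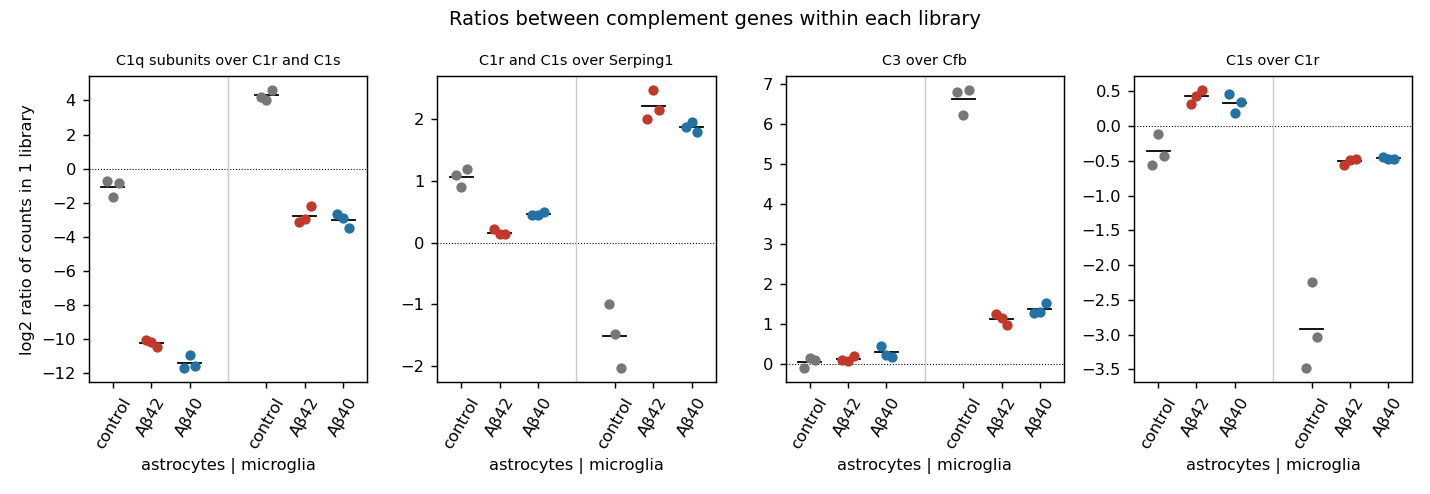
Log2 ratio of counts within each library (vertical axis) for 4 pairs of complement genes or sums, in astrocytes (left of each panel) and microglia (right); points are libraries, lines are group means and the dotted line marks equal counts. The ratio of C1r and C1s to Serping1 is lower with fibrils in astrocytes and higher in microglia, and C3 to Cfb falls only in the microglia panels shown.

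A model of all 18 libraries, with a term for the effect of treatment that is particular to the cell type, tested whether astrocytes and microglia differed in their response. With each fibril, 8 of 9 members differed by edgeR's quasi-likelihood test, where 37.3% (Aβ42) and 32.5% (Aβ40) of the 11581 genes tested did. The difference was largest for C3, whose log2 change in microglia minus that in astrocytes was -6.23 (SE 0.20, adjusted p = 7.83e-14) with Aβ42 fibrils and -6.21 (SE 0.20, adjusted p = 1.62e-13) with Aβ40 fibrils. Serping1 and C2 also responded less in microglia, C1s responded more there, and the C1q genes fell less there than in astrocyte cultures. Cfb rose less in microglia by log2 -0.63 and -0.70 (adjusted p = 0.00583 and 0.00285). C1r had no call, with a difference of 0.37 for both fibrils (95% interval 0.05 to 0.69, adjusted p = 0.0682 and 0.0749). It was called under DESeq2 size factors (0.43 and 0.44, adjusted p = 0.0379 and 0.0404), without astrocyte control replicate 2 (adjusted p = 0.0255 and 0.0329), without microglia control replicate 1 with Aβ42 fibrils (0.0449) and without astrocyte Aβ40 replicate 2 with Aβ40 fibrils (0.0494).

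Before any treatment the cell types already differed, with 6 members higher in untreated microglia and 3 higher in untreated astrocytes, where 68.8% of the 11581 genes tested were called (34.2% higher in microglia, 34.5% lower). In this comparison, cell type cannot be told apart from any difference in sequencing run between astrocyte and microglia libraries. C3 was 71.2-fold higher in microglia (log2 6.15, SE 0.16, adjusted p = 5.49e-16), C1qa 14.3-fold, C1qc 7.84-fold, C1qb 6.49-fold and C2 5.42-fold. C1s was 17.4-fold lower in microglia (log2 -4.12, SE 0.16, adjusted p = 5.83e-14) and C1r 2.95-fold lower (log2 -1.56, SE 0.11, adjusted p = 3.18e-10). Cfb differed by log2 -0.44 (adjusted p = 0.00414). Serping1 differed by log2 0.40 (adjusted p = 0.0471), and its libraries overlapped: without microglia control replicate 3 the value was 0.10 (adjusted p = 0.541), and without astrocyte control replicate 1 or 3 it was 0.35 and 0.31 (adjusted p = 0.134 and 0.161). The call was also lost under DESeq2 size factors (adjusted p = 0.0863), DESeq2's Wald test (0.0885), library totals (log2 0.12, adjusted p = 0.529), the compared groups alone (0.172) and the 10-count filter (0.129), so that 5 of the 6 higher members do not rest on it. Of the 6 groups, untreated astrocytes thus held the least C3.

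Aβ42 and Aβ40 are peptides of the same sequence except for the residues that Aβ42 has beyond the end of Aβ40, and their fibrils were compared at the same time of treatment. In astrocytes, 0 of 9 members differed between the fibrils by edgeR's quasi-likelihood test, where 0.0855% of genes were called (10 genes). The number of genes called was 0 to 4 when any 1 library of the 2 groups was left out. It was 265 of 11478 when only these 2 groups were fitted and 141 with DESeq2's Wald test. In microglia 0 of 9 members differed, where 20.3% of genes were called. At an unadjusted p-value under 0.05 the members counted were 2 of 9 (C1qb and Serping1) in astrocytes, where 737 of 11690 genes were. In microglia 1 of 9 (Serping1) was counted, where 4329 of 10837 genes were. DESeq2's Wald test called 0 of 9 in each cell type. Over all genes it called 141 of 11690 in astrocytes and 2323 of 10626 in microglia. In astrocytes the log2 difference of Aβ42 minus Aβ40 was -0.11 (95% interval -0.38 to 0.16) for C1r, -0.01 (-0.24 to 0.21) for C1s, -0.19 (-0.45 to 0.08) for C3 and -0.03 (-0.30 to 0.23) for Cfb. The intervals of the C1q genes were wide, reaching from -1.59 to 2.61 for C1qa. All 3 Aβ42 libraries lay above all Aβ40 libraries for Serping1 (log2 0.25, adjusted p = 0.781) and C1qb (log2 1.09, adjusted p = 0.644) and below them for C3 (adjusted p = 1), and groups that do not overlap were seen in 18.9% of genes.

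In microglia the largest differences between the fibrils were 0.49 for C2 (95% interval -0.05 to 1.03, adjusted p = 0.161) and -0.47 for Serping1 (-0.93 to -0.02, adjusted p = 0.112). Both rest on how Aβ42 replicate 1 is treated. That library held 200 CPM of C2 against 383 and 475 CPM in the other 2 and 245 to 263 CPM in the Aβ40 group, and 189 CPM of Serping1 against 133 and 159 CPM in the other 2 and 212 to 235 CPM in the Aβ40 group. Without it, C2 was higher with Aβ42 than with Aβ40 fibrils (log2 0.76, adjusted p = 2.59e-04) and Serping1 lower (log2 -0.60, adjusted p = 0.0133), and 6004 of 11155 genes were called in place of 2198 of 10837. The number of genes called was itself unsteady, at 121 and 99 without Aβ42 replicate 2 or 3, at 127, 154 and 153 without Aβ40 replicate 1, 2 or 3, and at 106 when only these 2 groups were fitted. The other 7 members had no call either way, with log2 differences between -0.20 and 0.38 without that library.

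Further genes of the system were taken from a list of 50, of which 44 are in the tables and 26 in astrocytes and 23 in microglia passed the filter on low counts. In astrocytes 6 were higher and 12 lower with Aβ42 fibrils, with a median log2 change of -0.24 against -0.00 over all genes tested, and 5 higher and 12 lower with Aβ40 fibrils (median -0.46 against 0.00). In microglia 9 were higher and 9 lower with Aβ42 fibrils (median 0.03 against 0.01), and 7 higher and 8 lower with Aβ40 fibrils (median -0.05 against 0.01). Those higher in microglia include C4b with either fibril and Csmd1 with Aβ42 fibrils, which passed the filter through the treated libraries. C3ar1, lower in astrocytes, passed it there through the controls. Over all genes tested in astrocytes, 16.5% were called higher and 20.4% lower with Aβ42 fibrils, and 14.9% and 18.4% with Aβ40 fibrils. In microglia these shares were 27.1% and 26.6% with Aβ42 fibrils, and 19.6% and 21.4% with Aβ40 fibrils.

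Of the 4 tested genes of the cascade, 2 were higher (C4a and C4b), 1 lower (Cfp) and 1 without a call (C8g) in each comparison with control. C4b and C4a encode C4, the substrate of C1s, and their reads cannot be assigned with certainty because the copies are nearly identical. C4b rose by log2 3.28 and 2.98 in astrocytes with Aβ42 and Aβ40 fibrils, from a group mean of 1.82 CPM, and C4a by 1.73 and 1.82. In microglia C4a rose by log2 2.88 with either fibril, and C4b was called higher, at group means of 2.26 and 2.38 CPM against 0.323 CPM in controls, which rests on 1 to 3 reads per control library and 5 to 59 per treated library. In microglia, where 0 control libraries reached the filter's minimum, C4b passed through the treated libraries, so that it had to be higher with fibrils for any call. In astrocytes 2 of the 3 control libraries reached the minimum, as did all treated ones. Among genes of recognition, Ptx3, a pentraxin that binds C1q, went in astrocytes from 10.6, 12.2 and 13.8 CPM to 253, 260 and 242 CPM with Aβ42 fibrils and 168, 182 and 180 CPM with Aβ40 fibrils (log2 4.34 and 3.83, adjusted p = 5.08e-09 and 1.09e-08, edgeR's quasi-likelihood test). In microglia Ptx3 did not pass the filter, with at most 1.60 CPM in any library. Cfp, which encodes properdin, the stabiliser of the alternative convertase, fell by log2 -1.35 and -1.40 in astrocytes and -3.17 and -3.71 in microglia.

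Regulators moved in both directions. Cd59, which blocks the membrane attack complex, fell by log2 -0.98 and -0.75 in astrocytes and -3.07 and -3.01 in microglia. Clu, which encodes clusterin, rose in both, by log2 0.71 and 0.63 in astrocytes and by 1.65 and 1.49 in microglia. Csmd1, a membrane regulator, fell by log2 -2.75 and -2.31 in astrocytes. In microglia its log2 change by edgeR's quasi-likelihood test was 0.83 (adjusted p = 0.0415) with Aβ42 fibrils and 0.48 (adjusted p = 0.380) with Aβ40 fibrils. There 1 of 3 control libraries and all treated ones reached the filter's minimum. Csmd1 thus passed through the treated libraries, which favoured a higher call. Cd55, which speeds the decay of convertases, was near 1 CPM in astrocytes, with log2 changes of 0.02 and -0.61 (adjusted p = 0.978 and 0.336), and did not pass the filter in microglia.

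The receptor for the C3a fragment, C3ar1, fell in both cell types. In microglia it went from 311, 229 and 356 CPM to 30.8, 13.5 and 16.0 CPM with Aβ42 fibrils and 25.8, 18.8 and 23.9 CPM with Aβ40 fibrils (log2 -4.06 and -3.72, adjusted p = 1.28e-07 and 3.83e-07), and in astrocyte cultures from 7.40 ± 0.426 CPM (SD, n = 3) by log2 -3.13 and -3.98. The treated astrocyte libraries held 8 to 11 reads of C3ar1 with Aβ42 fibrils and 5 to 8 with Aβ40 fibrils, and the gene passed the filter there through the controls, so that it had to be lower for any call. C5ar1, the receptor for C5a, fell by log2 -1.77 and -2.44 in astrocytes and rose by 0.74 and 0.96 in microglia, and the interaction with cell type was 2.48 (adjusted p = 2.44e-07) and 3.37 (adjusted p = 7.40e-09) for Aβ42 and Aβ40 fibrils. Cd93, a surface protein first described as a C1q receptor, rose by log2 2.54 and 2.84 in microglia. In astrocytes Cd93 rose by 1.23 with Aβ42 fibrils (adjusted p = 7.92e-04) and changed by -0.26 with Aβ40 fibrils (adjusted p = 0.395), and with Aβ42 fibrils it was 2.82-fold higher than with Aβ40 fibrils (SE 0.19 on the log2 scale, adjusted p = 0.0208 by edgeR's quasi-likelihood test), the 1 gene of the further list called between the fibrils in astrocytes. It was named after its value was seen, and the call was lost when any 1 library of the 2 groups other than Aβ42 replicate 1 was left out and with the replicate number as a block, where 0 genes of the list were called higher. Microglial markers fell in the astrocyte libraries, as given above, and their part in the lower C3ar1 and C5ar1 there was not tested.

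**Figure D5:**
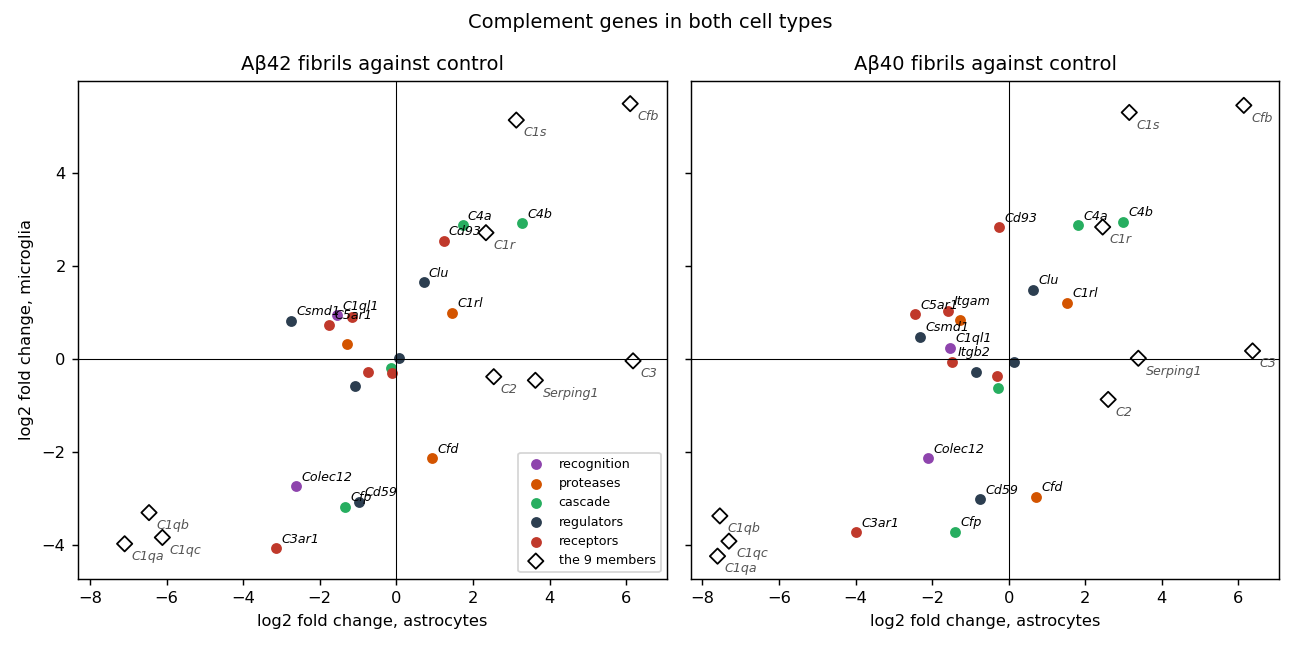
Log2 fold change against control in astrocytes (horizontal) and microglia (vertical) with Aβ42 and Aβ40 fibrils, for 20 genes of the further list that were tested in both cell types, coloured by role, and for the 9 members (diamonds); names are given where either change is beyond 1.3. C1q and C3ar1 lie at the lower left, Cfb and C1s at the upper right, and C3 and Serping1 far to the right near a microglial change of 0.

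Over the 9 libraries of a cell type, the members fell into blocs. In astrocytes, C1r, C1s, C2, C3, Cfb and Serping1 had Pearson correlations of log2 CPM of 0.96 or more with each other and between -0.99 and -0.93 with the C1q genes. In microglia the C1q genes correlated at 0.99 or more with each other and C1r, C1s and Cfb likewise at 0.99 or more, while C3 lay between -0.23 and 0.33 with the other 8. These libraries share their treatment groups, so the correlations describe the group differences above. Over all 18 libraries and 11581 genes, the genes whose log2 CPM was most like that of C1qa were C1qb (Pearson r = 0.990), Csf1r (0.990) and Anxa3 (0.987). Those most like C1r were Vcam1 (0.991), Rnd1 (0.990) and Asgr1 (0.987), those most like C3 were Sp110 (0.990), Cd83 (0.987) and Parp14 (0.986), and those most like Serping1 were Rab27b (0.976), Lgi2 (0.975) and Sfta2 (0.974).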

How the data were processed

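Total RNA of 18 samples (6 groups of 3) was sequenced from stranded mRNA libraries. The authors deposited 1 table of whole-number read counts per gene for each library, not normalized. The submitters' processing notes name STAR, Salmon, DESeq2 and the build rn5; versions and the strand setting of the counting are not given in the sources used here. Rows for reads off genes or ambiguous were left out, 26.0% to 34.2% of reads in astrocytes and 21.7% to 24.5% in microglia. Counts were fitted with edgeR 4.0.16 in R 4.3.3 (TMM, filterByExpr, glmQLFit, glmQLFTest, Benjamini-Hochberg adjustment over all tested genes, threshold 0.05), with 9 libraries for a cell type and 18 for differences between cell types. The standard error is the log2 change over the square root of F. Ratios within a library added 0.5 to each count or sum and were compared by two-sided exact permutation tests. A count of 3 equals 0.160 to 0.835 CPM in astrocytes and 0.130 to 1.38 CPM in microglia. Scripts were tested on simulated data.

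The members, the further list, the marker lists and the motifs were chosen with earlier results of these data known. The genes named are the 9 members, the 3 largest rises and falls of the further list in each comparison with control, 8 further genes of that list, and the 3 genes most like C1qa, C1r, C3 and Serping1; 1 gene of the further list that this rule names is counted with the list and not reported here. Colec11, C4-2, C5, C7, Csmd2, Itgax and the marker Fcrls were not analysed here. Alternatives were DESeq2 1.42.0 (size factors, Wald test), library totals, no scaling, other filters, a 5-fold rule, the compared groups alone, a replicate block and leaving out each library. Leaving out microglia Aβ42 replicate 1 where Aβ40 fibrils were compared with control was chosen after seeing the data.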

Additional observations from a re-analysis of the deposited data

Results flagged for a closer look

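The response to fibrils differed between the cell types for 8 of the 9 members by the interaction test of edgeR's quasi-likelihood fit to 18 libraries (Benjamini-Hochberg adjusted p under 0.05), and each value below is the log2 change in microglia minus that in astrocytes.

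For the C1q genes, which fell in both, the differences with Aβ42 fibrils were 3.12 for C1qa (SE 0.66, adjusted p = 0.00103), 3.16 for C1qb (SE 0.48) and 2.27 for C1qc (SE 0.46), and with Aβ40 fibrils 3.34, 4.15 and 3.37. In astrocyte cultures these genes rested on 2 to 19 reads per treated library. For C1s, which rose in both, they were 1.99 and 2.13 (SE 0.20 for both, adjusted p = 3.80e-07 and 2.02e-07).

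For C2 the differences were -2.92 and -3.48, for Serping1 -4.09 and -3.38, and for C3 -6.23 and -6.21 with Aβ42 and Aβ40 fibrils, all called. These 3 genes rose in astrocytes and had no call or, for C2 with Aβ40 fibrils, a fall in microglia. For Cfb, which rose in both, they were -0.63 and -0.70 (adjusted p = 0.00583 and 0.00285). In untreated cells C3, C2 and the C1q genes were higher in microglia and C1s and C1r lower, and the part of these starting levels in the differences was not tested.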

How the results depend on the processing

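In astrocytes, every one of the 18 member results against control kept its direction and its call under each alternative tried (264 of 264 values); the filter of 10 counts in every library gives no value for the C1q genes, so that 0 members are lower there with either fibril. In microglia 258 values kept both, 6 lost a call, 4 gained one and 11 changed sign. The labels do not say whether equal replicate numbers mark paired libraries. After each group's mean was subtracted, same-numbered libraries of different groups had correlations of -0.50 to 0.33 (astrocytes) and -0.18 to 0.19 (microglia). Differently numbered libraries had correlations of -0.44 to 0.50 and -0.20 to 0.21. Libraries matched their own number best in 3 of 18 and 5 of 18 cases. With 3 libraries in a group, these values cannot exclude pairing. With the replicate number as a block, Cfb between untreated cell types (log2 -0.40, adjusted p = 0.0509) and Serping1 there (0.31, adjusted p = 0.245) had no call, no other member changed its call, and microglial genes called between the fibrils went from 2198 to 752.

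Leaving the counts not scaled, in which library totals differ by up to 9.80 times, moved the values most. C2, C3 and Serping1 in microglia were 0.90, 1.03 and 0.55 with Aβ42 fibrils, C3 and Serping1 -0.79 and -0.87 with Aβ40 fibrils. Between the fibrils in microglia C1r, C1s, C3 and Serping1 were 1.85, 1.83, 1.82 and 1.42, with 6 members higher, where 5815 of 10837 genes were called. Serping1 between the fibrils in astrocytes was -0.17. The interaction of C1r with Aβ40 fibrils was -1.56, and interactions called were 1 higher and 2 lower (Aβ42) and 0 higher (Aβ40), against 4 and 4. Over all 11581 genes tested, 204 (Aβ42) and 655 (Aβ40) interactions were called without scaling. Of the further list, 3 were higher and 2 lower in Aβ42 fibril-treated astrocytes and 2 lower in Aβ40 fibril-treated ones, 4 higher and 2 lower in microglia with Aβ42 fibrils and 0 higher with Aβ40 fibrils, and between the fibrils 0 higher in astrocytes and 11 higher and 0 lower in microglia. Over all genes without scaling, 766 and 856 of 11690 were called in astrocytes with Aβ42 and Aβ40 fibrils, and 832 and 508 of 10837 in microglia. Between the fibrils 0 of 11690 genes were called in astrocytes. With library totals alone, Serping1 in microglia with Aβ40 fibrils was -6.6e-04.

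Leaving out 1 library changed the sign of small differences between the fibrils and of microglial C3 and Serping1, and changed calls as given above. Between the fibrils in microglia, C1qa ranged from -0.015 to 0.39, C1qb from -0.34 to 0.31, C1qc from -0.16 to 0.23 and Cfb from -0.036 to 0.10, and in astrocytes C1s from -0.038 to 0.014, C2 from -0.13 to 0.019 and Cfb from -0.13 to 0.045. C3 in microglia with Aβ42 fibrils ranged from -0.17 to 0.059 and Serping1 with Aβ40 fibrils from -0.15 to 0.35. Members called between the fibrils in microglia ranged from 0 to 1 higher and 0 to 1 lower, genes of the further list from 0 to 2 higher and 0 to 7 lower, the highest without Aβ42 replicate 1, and in astrocytes from 0 to 1 higher. The cause of these changes was not tested.

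The 10-count filter left 2 interactions higher for each fibril, 2 members higher in untreated microglia and 3 of the further list higher in astrocytes with Aβ40 fibrils. A 5-fold rule left 2 interactions higher with Aβ42 fibrils and 1 member lower in untreated microglia. For the further list it left 2 higher and 4 lower in Aβ42 fibril-treated astrocytes, 2 and 3 in Aβ40 fibril-treated ones, 3 higher in microglia with Aβ42 and 3 with Aβ40 fibrils, and 0 between the fibrils in astrocytes (higher) and microglia (lower). Of the further list between the fibrils, the compared groups alone gave 3 higher in astrocytes and 0 lower in microglia, DESeq2's Wald test 3 higher in astrocytes and 1 higher and 2 lower in microglia, library totals 2 lower in microglia, no filter 1 higher and 3 lower in microglia, and the replicate block 0 higher in astrocytes. With C1s left out of the sums, the log2 ratio of C1q to C1r differed by -8.75 in astrocytes with Aβ42 fibrils and by -6.48 and -6.72 in microglia, and that of C1r to Serping1 by -1.29 and -0.94 in astrocytes and 3.13 and 2.77 in microglia. The C1r interaction (0.37) was called under DESeq2 size factors, DESeq2's Wald test, library totals and the 10-count filter, and without 1 library in 4 cases. The C1q genes of treated astrocytes rest on 2 to 19 reads per library.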
